A study of Mus musculus with 36 samples.

Results

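The genes described here are 10 members of the Wnt pathway and of the primitive streak programme, chosen by name from the 49671 genes of the count table. They are the ligand Wnt3, the pathway targets Axin2 and Sp5, the DNA-binding factors Lef1, Tcf7 and Tcf7l1, the streak transcription factors T (brachyury, also called Tbxt), Mixl1 and Eomes, and the growth factor Fgf8. All 10 were among the 17702 genes that passed the filter on low counts, though Fgf8 had at most 24 counts in a library.

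RNA was sequenced from mouse embryonic stem cells of the genotype 129m wt, grown on soft or stiff substrates (StemBond hydrogels, which are polyacrylamide gels with tethered matrix protein) or on tissue culture plastic. All media held serum. The 24 h groups, 1 soft and 1 stiff, received serum+LIF. At 48 h each of these substrates was sampled in 4 media, namely serum with no addition, with LIF, with PD03 and with both. Plastic was sampled at 48 h with LIF. LIF is a cytokine that helps stem cells to renew by activating STAT3, and PD03 inhibits MEK, the kinase that activates ERK. There were 36 libraries in 11 groups, 3 in each group except for 6 on soft substrates with PD03 alone. Doses of LIF and PD03 were not in the labels. The labels do not say whether the libraries of a group came from separate cultures, so the p-values measure the spread between these libraries, which may be technical. All cells carried the same genotype and no gene was targeted.

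Wnt ligands bind Frizzled and LRP receptors at the cell surface and thereby stop the degradation of beta-catenin, which enters the nucleus and joins DNA-binding factors of the TCF/LEF family. In mouse embryonic stem cells, Tcf7l1 acts mainly as a repressor of pluripotency genes, Tcf7 and Lef1 can carry beta-catenin to its targets, and Axin2 is a target that feeds back by promoting beta-catenin degradation. In the embryo, Wnt3 is needed to form the primitive streak, where T, Mixl1 and Eomes mark the cells that become mesoderm and endoderm.

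The reference promoter table of RefSeq, on build GRCm38.p6, had an entry for 8 of the 10 genes. Mixl1 and Fgf8 had none. The 250 bases before the start are printed for Wnt3, Sp5, Lef1 and T, Wnt3 as the ligand of the group and the other 3 as the genes with the largest decreases with PD03 below. Capitals mark CTTTG or its reverse complement CAAAG, the core letters that TCF/LEF factors are known to bind, and the longer CTTTGAT or ATCAAAG where present, which contains the shorter core. Each is read 5′ to 3′ on the strand of the gene, which is the plus strand for all 4. The windows are chr11:103773925-103774174 for Wnt3, chr2:70474673-70474922 for Sp5, chr3:131110047-131110296 for Lef1 (the most upstream of 4 entries) and chr17:8434173-8434422 for T. The starts used are those of the promoter entries. The Wnt3 window runs past the gene start given below (103774150), and the Lef1 window ends short of it (131110471).
Wnt3: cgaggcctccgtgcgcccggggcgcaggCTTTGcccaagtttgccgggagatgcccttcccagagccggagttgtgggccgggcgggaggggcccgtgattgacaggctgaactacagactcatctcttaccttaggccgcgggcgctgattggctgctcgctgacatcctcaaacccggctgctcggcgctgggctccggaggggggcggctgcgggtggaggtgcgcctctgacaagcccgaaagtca
Sp5: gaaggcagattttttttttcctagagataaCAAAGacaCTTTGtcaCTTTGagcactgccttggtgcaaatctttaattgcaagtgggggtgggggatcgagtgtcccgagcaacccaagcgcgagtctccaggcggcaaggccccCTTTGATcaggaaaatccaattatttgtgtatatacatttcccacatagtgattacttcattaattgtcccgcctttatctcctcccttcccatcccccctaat
Lef1: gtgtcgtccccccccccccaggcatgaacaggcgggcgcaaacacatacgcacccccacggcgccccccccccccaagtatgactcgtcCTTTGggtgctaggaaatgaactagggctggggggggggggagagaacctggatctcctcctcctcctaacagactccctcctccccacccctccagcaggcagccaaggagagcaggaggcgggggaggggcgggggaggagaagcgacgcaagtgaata
T: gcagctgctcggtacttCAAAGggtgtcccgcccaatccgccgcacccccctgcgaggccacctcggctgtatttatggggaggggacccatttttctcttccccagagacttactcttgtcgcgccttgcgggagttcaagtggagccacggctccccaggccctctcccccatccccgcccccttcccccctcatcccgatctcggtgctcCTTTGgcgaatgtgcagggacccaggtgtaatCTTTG
The short core was found 4 times in the Sp5 window, 3 times in that of T, and 1 time each in those of Wnt3 and Lef1. Among all 32851 promoter windows of this length, 48.6% held the short core on either strand. The long core was found 1 time in the Sp5 window and in none of the other printed windows, and 3.2% of all windows held it. The Axin2 window and both Tcf7 windows held neither core. The short core was found 2 times in the Eomes window, 1 time in that of Tcf7l1 and 1 to 3 times in the 4 Lef1 windows. These matches are a description of letters and say nothing about binding.

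Library totals lay between 10405696 and 26635239 counts. The stem cell markers Pou5f1, Sox2, Nanog, Zfp42, Esrrb and Klf4 were each at 113 CPM or more, where CPM is a count scaled to the library's total with TMM factors, in all libraries, so the labelled cell type was borne out by its markers. The stem cell sum was 1781 to 2356 CPM without PD03 and 2743 to 3309 CPM with it. It was higher on soft than on stiff substrates, without overlap, in each of the 5 media and times. At 24 h it was 2038 to 2356 CPM on soft and 1866 to 1907 CPM on stiff substrates. Markers of 5 other cell types were also summed. The trophoblast sum, which includes Eomes, was 57.5 to 94.8 CPM without PD03 and 197 to 285 CPM with it, mostly from Tfap2c and Gata3, while the trophoblast marker Elf5 was at most 0.861 CPM in any library. The primitive endoderm sum was 45.0 to 68.5 CPM without PD03 and 82.2 to 139.5 CPM with it, and the definitive mesoderm sum, mostly Hand1, was 9.08 to 28.2 CPM without PD03 and 33.1 to 72.2 CPM with it. The neural sum was 65.4 to 107 CPM without PD03 and 50.5 to 65.3 CPM with it. The fibroblast sum, mostly Col1a1, was lower on soft than on stiff substrates in each of the 5 media and times. At 24 h it was 26.6 to 38.8 CPM on soft and 53.8 to 61.2 CPM on stiff substrates, and in serum+LIF+PD03 it was 33.99 to 48.9 CPM against 92.7 to 99.2 CPM. The definitive mesoderm sum was also lower on soft substrates at 24 h, at 15.9 to 16.6 CPM against 27.6 to 28.2 CPM. At 48 h it was lower without overlap in serum, serum+PD03 and serum+LIF+PD03, and overlapped in serum+LIF. At 24 h the trophoblast sum (80.8 to 87.1 against 92.1 to 94.8 CPM) and the primitive endoderm sum (45.9 to 52.1 against 53.4 to 60.6 CPM) were lower on soft substrates. The neural sum was higher there (99.6 to 107 against 84.2 to 91.8 CPM). The part that other cell types play in the results below was not tested. In bulk RNA, fewer cells that express a gene and less of its RNA per cell cannot be told apart.

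The labels were checked with targets of the additives. Spry4 and Dusp6, targets of ERK, were lower with PD03 in all 4 comparisons, with log2 fold changes between -7.82 and -6.77 for Spry4 and between -3.15 and -2.74 for Dusp6. Socs3, a target of LIF signalling, was higher with LIF on soft and on stiff substrates without PD03, with log2 fold changes of 0.40 ± 0.07 (SE, adjusted p = 0.0142) and 0.76 ± 0.07 (adjusted p = 1.35e-09, edgeR). With PD03 it passed on stiff (0.34, adjusted p = 0.0115) and not on soft substrates (0.08, adjusted p = 0.781, edgeR).

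Per length of exons, Tcf7l1 had the highest and Tcf7 the next highest level of the 10 genes in all 11 groups. In serum at 48 h on soft substrates, Tcf7l1 was at 58.9 CPM per kb (mean, n = 3), followed by Tcf7 at 23.7, Axin2 at 6.44, Lef1 at 6.02, Sp5 at 4.56, T at 2.54, Eomes at 2.38, Wnt3 at 0.815, Mixl1 at 0.803 and Fgf8 at 0.434 CPM per kb. In this order, Axin2 and Lef1, T and Eomes, Wnt3 and Mixl1, and Mixl1 and Fgf8 had overlapping ranges over the libraries. With the longest transcript in place of the union of exons, Lef1 came before Axin2, at 14.5 against 8.32 CPM per kb. With PD03 on soft substrates without LIF, the order began Tcf7l1, Tcf7 and Axin2 (129.9, 19.2 and 3.05 CPM per kb), and Eomes at 0.763 came next, while Lef1 and Sp5 stood at 0.145 and 0.144 CPM per kb.

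**Figure D1:**
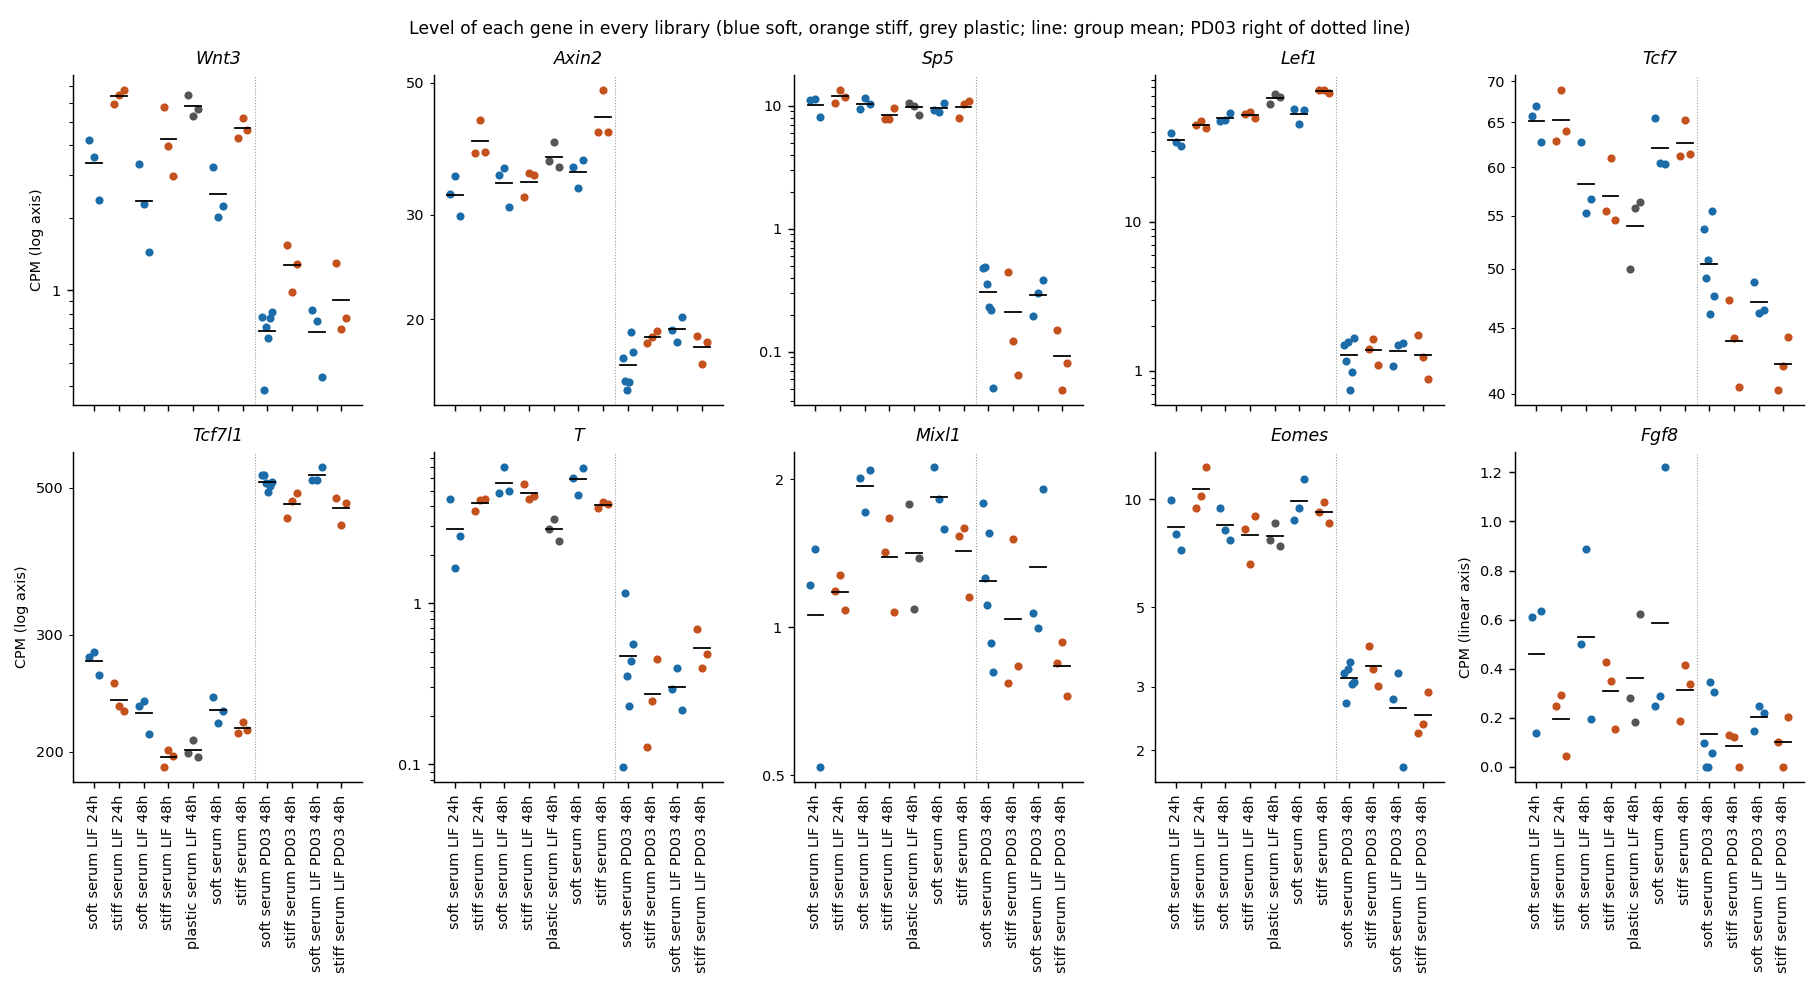
Level of each of the 10 genes in CPM (vertical axis, logarithmic except for Fgf8) in every library of the 11 groups (horizontal axis), with points for libraries (blue soft, orange stiff, grey plastic) and a black line for the group mean. Right of the dotted line, with PD03, Lef1 stayed at or under 1.74 CPM in all libraries and Tcf7l1 at or above 439.6 CPM.

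Inhibition of MEK with PD03 was compared with the same medium without it at 48 h, on each substrate and with or without LIF, to see how the group depended on ERK activity. Of the 10 genes, 9 passed the test on soft substrates without LIF, against 57.5% of all genes tested, and 8 passed on stiff substrates without LIF (55.8% of all genes), on soft substrates with LIF (54.4%) and on stiff substrates with LIF (56.2%). Since most genes tested passed, the count says little about the group, and the sizes are described instead. The median log2 fold change of the 10 genes was between -1.73 and -1.52 in the 4 comparisons, and that of all genes tested between -0.01 and 0.01. The 10 genes were chosen with earlier results of these data known, so these medians are a description and not a test. Tcf7l1 rose and 7 genes fell in all 4 comparisons. These comparisons share no library with one another.

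The ligand Wnt3 (ENSMUSG00000000125, chromosome 11, 103774150 to 103817957, plus strand, as are all coordinates here in GRCm38 and GENCODE M21) fell with PD03. On stiff substrates without LIF it was at 4.26, 5.20 and 4.60 CPM without PD03 and at 1.54, 0.982 and 1.29 CPM with it. The groups did not overlap, and the decrease was 3.75-fold (log2 fold change -1.91 ± 0.27, adjusted p = 2.65e-08, edgeR). On soft substrates it was at 3.26, 2.02 and 2.24 CPM without PD03, and with PD03 its 6 libraries had a lowest value of 0.387, a median of 0.735 and a highest of 0.811 CPM. Again all libraries with PD03 were below those without it, and the decrease was 3.55-fold (adjusted p = 2.87e-08, edgeR).

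Lef1 (ENSMUSG00000027985, chromosome 3, 131110471 to 131224356, plus strand) had the largest decrease of the group on soft substrates without LIF. On soft substrates with LIF it was not separated from Sp5. With 1 library left out, the log2 fold changes there were -5.28 to -5.04 for Lef1 and -5.37 to -4.92 for Sp5. On soft substrates in serum Lef1 was at 57.1, 45.7 and 56.0 CPM, and in serum+PD03 at 0.748 (lowest), 1.33 (median) and 1.67 CPM (highest of 6). The values with PD03 were all far below those without it. The decrease was 40.6-fold on soft (log2 fold change -5.34 ± 0.11, adjusted p = 3.49e-39) and 53.3-fold on stiff substrates (-5.74 ± 0.14, adjusted p = 2.54e-36, edgeR).

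Sp5 (ENSMUSG00000075304, chromosome 2, 70474923 to 70477729, plus strand), a zinc finger factor that Wnt signals induce directly and whose promoter is printed above, fell to near the limit of counting. On stiff substrates with LIF it was at 7.75, 7.86 and 9.62 CPM without PD03 (109 to 188 counts) and at 0.149, 0.0492 and 0.0804 CPM with it (1 to 3 counts). The log2 fold change there was -6.42 ± 0.34 (adjusted p = 3.83e-22, edgeR), a size that rests on these few counts. On soft substrates without LIF it was at 9.27, 8.93 and 10.5 CPM without PD03 and between 0.0506 and 0.484 CPM with it, with a median of 0.291 CPM. All values with PD03 were below all values without it, and the decrease was 32.04-fold (-5.00 ± 0.22, adjusted p = 2.74e-25, edgeR).

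Axin2 (ENSMUSG00000000142, chromosome 11, 108920349 to 108950783, plus strand) fell by less. On stiff substrates without LIF it was at 41.3, 48.7 and 41.2 CPM without PD03 and at 18.3, 18.7 and 19.1 CPM with it. The groups did not overlap, and the decrease was 2.33-fold (-1.22 ± 0.08, adjusted p = 2.87e-18, edgeR). Over the 4 comparisons the log2 fold changes of Axin2 were between -1.22 and -0.82.

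The other TCF/LEF factors moved in opposite directions. Tcf7 (ENSMUSG00000000782, chromosome 11, 52252371 to 52283014, minus strand) on stiff substrates without LIF was at 61.3, 65.3 and 61.5 CPM without PD03 and at 47.3, 44.1 and 40.5 CPM with it. All 3 values with PD03 were lower, a decrease of 1.42-fold (-0.51 ± 0.07, adjusted p = 4.21e-09, edgeR), and in the other 3 comparisons the log2 fold changes were between -0.43 and -0.30. Tcf7l1 (ENSMUSG00000055799, chromosome 6, 72626378 to 72789254, minus strand) was at 242, 221 and 230.2 CPM on soft substrates in serum and at 492.6 (lowest), 509 (median) and 522 CPM (highest of 6) in serum+PD03. The groups did not overlap, and the increase was 2.21-fold (1.14 ± 0.04, adjusted p = 3.88e-28, edgeR). Its log2 fold changes over the 4 comparisons were between 1.13 and 1.25. Genes annotated on the opposite strand overlap Axin2, Lef1, Tcf7, Tcf7l1 and Eomes, and genes on the same strand overlap Lef1, Tcf7 and Tcf7l1. The strand setting of the counting was not given in the sources used here, so reads from the opposite-strand pairs cannot be told apart.

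Of the streak factors, T (ENSMUSG00000062327, chromosome 17, 8434423 to 8442496, plus strand), which marks the forming mesoderm, was at 4.83, 7.05 and 4.97 CPM on soft substrates with LIF and at 0.291, 0.399 and 0.218 CPM with LIF and PD03 (4 to 8 counts). The groups did not overlap, and the decrease was 18.1-fold (-4.17 ± 0.36, adjusted p = 2.59e-14, edgeR). Eomes (ENSMUSG00000032446, chromosome 9, 118478212 to 118486132, plus strand), a T-box factor of streak and trophoblast, was at 9.47, 8.19 and 7.72 CPM in the same medium without PD03 and at 2.77, 3.29 and 1.80 CPM with it. This was a decrease of 3.21-fold without overlap (-1.68 ± 0.17, adjusted p = 4.92e-12, edgeR). Eomes fell while the summed trophoblast markers were higher with PD03, as given above.

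Mixl1 (ENSMUSG00000026497, chromosome 1, 180693043 to 180697034, minus strand), a homeobox factor of the streak, did not pass the test in any of the 4 comparisons, with log2 fold changes between -0.72 and -0.41 and adjusted p between 0.0674 and 0.31 (edgeR). On soft substrates with LIF it was at 2.01, 1.71 and 2.09 CPM without PD03 and at 1.07, 0.996 and 1.91 CPM with it, so that the groups overlapped. Its counts were 9 to 43 per library, which limits what could be detected. Fgf8 (ENSMUSG00000025219, chromosome 19, 45736798 to 45742915, minus strand), a growth factor of the streak, had no count in 4 of the 36 libraries. It passed the test on soft substrates without LIF (adjusted p = 0.00829, edgeR), where it was at 0.247, 0.288 and 1.22 CPM without PD03 and at 0 to 0.345 CPM with it. The groups overlapped, and without the third soft library in serum the log2 fold change was -0.90 (adjusted p = 0.37, edgeR), so the call rested on that library.

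**Figure D2:**
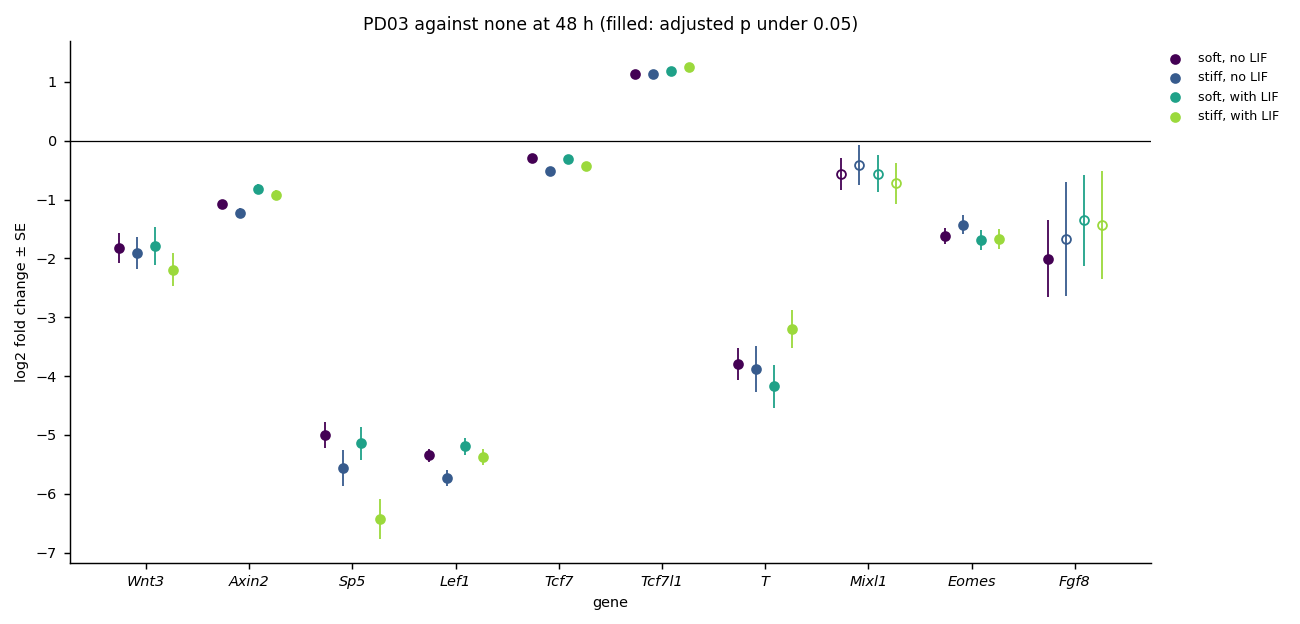
Log2 fold change with PD03 at 48 h (vertical axis, bars are standard errors of the edgeR fit) for each gene (horizontal axis), in 4 comparisons shown by colour (soft or stiff, with or without LIF). Filled points have an adjusted p under 0.05. Lef1 and Sp5 lie at or below -5.00 and Tcf7l1 above 1 in all 4.

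Whether the effect of PD03 differed between substrates was tested as an interaction. Of the 10 genes 0 passed without LIF (0.797% of all genes did) and 0 passed with LIF (1.07%), in edgeR. DESeq2 called 0 as well, with no adjusted p for 4 genes without LIF (Wnt3, T, Mixl1 and Fgf8) and for 1 with LIF (Fgf8). At an unadjusted p under 0.05, edgeR had 1 gene, Tcf7, without LIF and 0 with LIF. For T with LIF the difference between the effects was -0.97 ± 0.56 on the log2 scale (adjusted p = 0.627, edgeR).

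Soft and stiff substrates were compared in each medium and time, to see whether stiffness changed the group. The 24 h libraries share the leading identifier of their sample description. At 48 h this identifier, which the labels do not explain, nearly coincides with the substrate: soft libraries carry one and stiff libraries another, except for 1 of 3 stiff libraries in serum+LIF and 2 of 6 soft libraries in serum+PD03. Substrate and identifier therefore cannot be told apart in most 48 h comparisons. At 24 h, where they can, 4 of the 10 genes passed the test against 3.55% of all genes.

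Wnt3 was lower on soft substrates at 24 h. Its soft values were 4.18, 3.57 and 2.37 CPM, against 5.92, 6.47 and 6.80 CPM on stiff substrates. The groups did not overlap and the difference was 1.93-fold (log2 fold change -0.95 ± 0.23, adjusted p = 0.00856, edgeR), while without the third soft library it was -0.73 (adjusted p = 0.12). In serum at 48 h Wnt3 was at 3.26, 2.02 and 2.24 CPM on soft and at 4.26, 5.20 and 4.60 CPM on stiff substrates, again without overlap (-0.89 ± 0.24, adjusted p = 0.0155, edgeR). That call was lost without soft library 2 (-0.76, adjusted p = 0.128), soft library 3 (-0.83, adjusted p = 0.0788) or stiff library 2 (-0.81, adjusted p = 0.0786). In the 3 other comparisons it did not pass. There the log2 fold changes were -0.82 ± 0.25 in serum+LIF at 48 h (adjusted p = 0.127), -0.81 ± 0.30 in serum+PD03 (adjusted p = 0.112) and -0.42 ± 0.36 in serum+LIF+PD03 (adjusted p = 0.585, edgeR). In serum+LIF at 48 h it was -0.54 without stiff library 1, and in serum+LIF+PD03 -0.11 without stiff library 1 and -0.20 without soft library 3.

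In the mean over the 5 media and times, 3 of the 10 genes passed the test, against 17.1% of all genes. Wnt3 was lower on soft substrates (a fold of 1.72, log2 fold change -0.78 ± 0.13, adjusted p = 4.08e-06), Axin2 was lower (-0.13 ± 0.04, adjusted p = 0.00539) and Tcf7l1 was higher by 0.16 ± 0.02 (adjusted p = 8.35e-08, edgeR). With DESeq2, Lef1 and Tcf7 passed as well. Each of the 45 ways to assign the description identifiers to libraries was also fitted as a term: Tcf7l1 passed in 32 of them, Axin2 in 3 and Wnt3 in 1, with a log2 fold change of Wnt3 between -1.20 and -0.52.

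Axin2 and Lef1 were lower on soft substrates at 24 h. Axin2 was at 32.5, 34.9 and 29.8 CPM on soft and at 38.1, 43.3 and 38.2 CPM on stiff substrates, without overlap (a fold of 1.23, log2 fold change -0.30 ± 0.08, adjusted p = 0.0164, edgeR). Lef1 was at 39.6, 34.4 and 32.1 CPM on soft and at 44.7, 47.4 and 42.8 CPM on stiff substrates, also without overlap (a fold of 1.28, -0.35 ± 0.09, adjusted p = 0.0123, edgeR). The Axin2 call was lost without soft library 3 (-0.24, adjusted p = 0.146) or stiff library 2 (-0.24, adjusted p = 0.159), and that of Lef1 without soft library 2 (-0.34, adjusted p = 0.063), soft library 3 (-0.28, adjusted p = 0.124) or stiff library 2 (-0.31, adjusted p = 0.0864).

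In serum at 48 h, 3 of the 10 genes passed the test, against 4.85% of all genes. These were Wnt3, as above, with Axin2 and Lef1. Lef1 was at 57.1, 45.7 and 56.0 CPM on soft and at 77.4, 76.9 and 73.2 CPM on stiff substrates, which did not overlap (a fold of 1.43, -0.52 ± 0.08, adjusted p = 1.61e-05, edgeR). Axin2 was at 36.01, 33.2 and 37.1 CPM on soft and at 41.3, 48.7 and 41.2 CPM on stiff substrates (-0.30 ± 0.08, adjusted p = 0.0103, edgeR), a call lost without soft library 2 (-0.25, adjusted p = 0.104) or stiff library 2 (-0.22, adjusted p = 0.171). With the identifier term, Lef1 passed in 3 and Axin2 in 6 of the 45 assignments. The log2 fold change of Wnt3 was between -1.39 and -0.61 over the assignments. It passed at neither end (adjusted p = 0.231 and 0.713, edgeR).

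Tcf7l1 was the more abundant on soft substrates at 24 h, and at 48 h in both media with LIF. At 24 h it was at 278, 282 and 261 CPM on soft and at 253, 234 and 230.4 CPM on stiff substrates, without overlap (a fold of 1.14, 0.19 ± 0.05, adjusted p = 0.0114, edgeR). This call was lost without any of 4 libraries, with an adjusted p of 0.0568 without soft library 1, 0.086 without soft library 2, 0.0736 without stiff library 2 and 0.0902 without stiff library 3. It was also lost with the compared groups alone (0.19, adjusted p = 0.0527). In serum+LIF at 48 h, 1 of the 10 genes passed, against 0.78% of all genes, and it was Tcf7l1. It was at 234, 239 and 213 CPM on soft and at 189.8, 201 and 197 CPM on stiff substrates, without overlap (0.22 ± 0.05, adjusted p = 0.0129, edgeR), with an adjusted p of 0.104 without soft library 2, 0.0994 without stiff library 1 and 0.0823 without stiff library 3.

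With PD03, 1 of the 10 genes passed the test between substrates in each medium. That is near the share of all genes, so the count says little about the group. In serum+LIF+PD03 that gene was Tcf7l1, against 7.61% of all genes, at 513, 514 and 538 CPM on soft and at 483, 439.6 and 474 CPM on stiff substrates (0.16 ± 0.05, adjusted p = 0.02, edgeR). Its groups did not overlap, and the adjusted p was 0.113 without soft library 3, 0.184 without stiff library 2 and 0.0857 with no filter on low counts. With the identifier term the log2 fold change of Tcf7l1 was between 0.11 and 0.22. It passed at neither end (adjusted p = 0.556 and 0.0966, edgeR). In serum+PD03 the gene was Tcf7, against 5.55% of all genes. Tcf7 was at 46.1 (lowest), 49.99 (median) and 55.5 CPM (highest of 6) on soft and at 47.3, 44.1 and 40.5 CPM on stiff substrates. These groups overlapped (0.20 ± 0.06, adjusted p = 0.0292, edgeR), and the call was lost without soft library 1 (adjusted p = 0.0753), soft library 5 (0.0813), stiff library 2 (0.0974) or stiff library 3 (0.263), and with no filter on low counts (0.0737). Tcf7l1 did not pass there (0.11 ± 0.04, adjusted p = 0.127) nor in serum (0.09 ± 0.05, adjusted p = 0.353, edgeR).

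Sp5, T, Mixl1, Eomes and Fgf8 did not pass the test between soft and stiff substrates in any medium. T was at 6.02, 4.71 and 6.935 CPM on soft and at 3.89, 4.23 and 4.13 CPM on stiff substrates in serum, where the soft values were all higher (log2 fold change 0.53 ± 0.24, adjusted p = 0.256), and at 4.44, 1.65 and 2.60 CPM against 3.75, 4.36 and 4.46 CPM at 24 h, where they overlapped (-0.57 ± 0.27, adjusted p = 0.294, edgeR). The sign of T thus differed between these comparisons, which differ in both medium and time. Neither difference passed the test after adjustment over all genes tested.

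**Figure D3:**
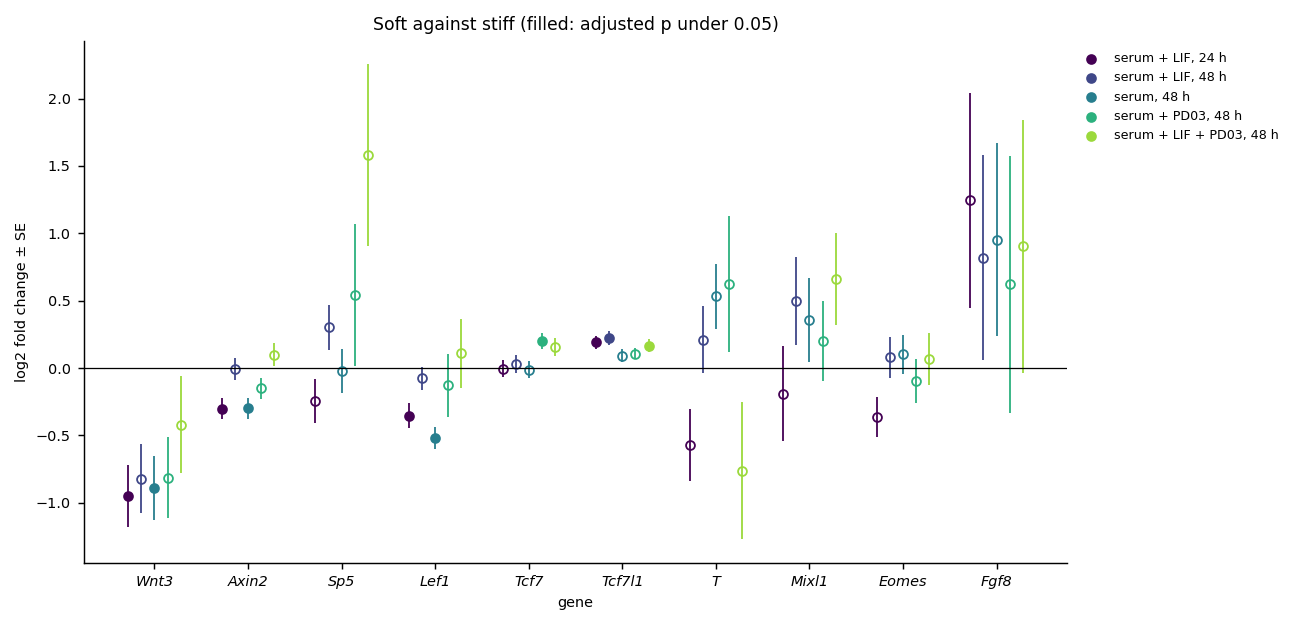
Log2 fold change of soft against stiff substrates (vertical axis, bars are standard errors of the edgeR fit) for each gene (horizontal axis) in 5 media and times, shown by colour. Filled points have an adjusted p under 0.05. Wnt3 lies below 0 in all 5 comparisons and Tcf7l1 above 0 in all 5, with sizes for Tcf7l1 of at most 0.22.

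The effect of LIF at 48 h was tested on each substrate with and without PD03. On stiff substrates without PD03, 2 of the 10 genes passed, against 1.41% of all genes. Lef1 was at 52.6, 54.95 and 50.2 CPM with LIF and at 77.4, 76.9 and 73.2 CPM without it, and all values with LIF were lower (a fold of 1.45, log2 fold change -0.53 ± 0.08, adjusted p = 5.53e-05, edgeR). Axin2 was at 32.1, 35.2 and 34.95 CPM with LIF and at 41.3, 48.7 and 41.2 CPM without it (-0.35 ± 0.08, adjusted p = 0.00682, edgeR), a call lost without the LIF library 1 (-0.31, adjusted p = 0.0825) or the serum library 2 (-0.28, adjusted p = 0.104). The serum libraries on stiff substrates are the same ones that enter the comparison of substrates in serum.

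In the other 3 comparisons of LIF, 0 of the 10 genes passed in edgeR. DESeq2 called 0 too, with no adjusted p for 1 gene, Fgf8, on soft substrates with PD03 and for 4 (Wnt3, T, Mixl1 and Fgf8) in each of the other two. The shares of all genes were 0.0169% on soft substrates without PD03, 0.107% on soft substrates with PD03 and 0.514% on stiff substrates with PD03. At an unadjusted p under 0.05, edgeR had 0, 1 and 1 of the 10 genes, namely Axin2 on soft and Eomes on stiff substrates with PD03. On soft substrates without PD03, Lef1 was at 47.8, 48.2 and 53.5 CPM with LIF and at 57.1, 45.7 and 56.0 CPM without it, which overlapped (-0.09 ± 0.09, adjusted p = 0.87, edgeR). Whether the effect of LIF differed between substrates was tested as an interaction, in which 0 of the 10 genes passed (0.0847% of all genes) in edgeR, and 2 had an unadjusted p under 0.05. DESeq2 called 0, with an adjusted p for 1 of the 10 genes. For Lef1 the interaction was 0.44 ± 0.12 on the log2 scale (adjusted p = 0.155) and for Axin2 0.29 ± 0.11 (adjusted p = 0.33, edgeR). With no filter on low counts, Lef1 passed (adjusted p = 0.00398).

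Cells on plastic were compared with those on the substrates in serum+LIF at 48 h, and these 2 comparisons share the plastic libraries. Against soft substrates, 4 of the 10 genes passed, against 11.8% of all genes. Wnt3 was at 3.32, 2.29 and 1.44 CPM on soft substrates and at 6.46, 5.265 and 5.66 CPM on plastic, without overlap (a fold of 2.46, log2 fold change -1.30 ± 0.25, adjusted p = 0.000114, edgeR). Lef1 was at 47.8, 48.2 and 53.5 CPM on soft substrates and at 62.0, 71.8 and 68.8 CPM on plastic (-0.44 ± 0.09, adjusted p = 0.000182, edgeR). T was higher on soft substrates, at 4.83, 7.05 and 4.97 CPM against 2.90, 3.33 and 2.42 CPM on plastic (0.96 ± 0.26, adjusted p = 0.00885, edgeR), and Tcf7l1 was higher by 0.18 ± 0.05 (adjusted p = 0.00765, edgeR). None of these groups overlapped, but without soft library 2 the adjusted p was 0.0915 for T and 0.0696 for Tcf7l1.

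Against stiff substrates, 1 of the 10 genes passed, against 5.54% of all genes. It was Lef1, at 52.6, 54.95 and 50.2 CPM on stiff substrates and lower than on plastic without overlap (-0.36 ± 0.09, adjusted p = 0.0039, edgeR). T did not pass (0.75 ± 0.26, adjusted p = 0.093), though its stiff values of 5.48, 4.45 and 4.66 CPM were all above those on plastic, and it passed in DESeq2 (adjusted p = 0.0481) and with the compared groups alone (0.016). The plastic libraries carry the identifier of the 24 h libraries, which most of the 48 h libraries do not. With the identifier as a term, between 0 and 1 of the 10 genes passed in each of these comparisons.

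The times of 24 h and 48 h were compared in serum+LIF, where time and description identifier coincide for all soft and for 2 of 3 stiff libraries at 48 h. On soft substrates 4 of the 10 genes passed, against 24.4% of all genes, and on stiff substrates 7 passed, against 25.6%. Lef1 was higher at 48 h on soft substrates, at 47.8, 48.2 and 53.5 CPM against 39.6, 34.4 and 32.1 CPM (0.50 ± 0.09, adjusted p = 2.78e-05, edgeR), without overlap. T was higher there by 0.99 ± 0.27 (adjusted p = 0.00413) and Mixl1 by 0.90 ± 0.34 (adjusted p = 0.0488), and Tcf7l1 was lower by a log2 fold change of -0.26 ± 0.05 (adjusted p = 5.64e-05, edgeR). Without soft library 2 of 24 h, T did not pass (adjusted p = 0.0663), and Mixl1 did not pass without any of 5 of the 6 libraries (adjusted p = 0.0564 to 0.331, with a log2 fold change of 0.53 without soft library 3 of 24 h). Mixl1 did not pass with the compared groups alone (adjusted p = 0.112) or with no filter on low counts (0.0889) either.

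On stiff substrates, Lef1 was the gene of the 7 that was higher at 48 h (0.23 ± 0.09, adjusted p = 0.0461), and Wnt3, Axin2, Sp5, Tcf7, Tcf7l1 and Eomes were lower, with log2 fold changes between -0.62 and -0.20. Wnt3 was at 5.76, 3.965 and 2.97 CPM in the later libraries, all below the 5.92, 6.47 and 6.80 CPM of the earlier ones (-0.62 ± 0.22, adjusted p = 0.0341, edgeR), and -0.40 without stiff library 3 of 48 h. The call of Tcf7l1 (-0.29 ± 0.05, adjusted p = 8.21e-06, edgeR) held without each library in turn, while those of the other 6 genes were each lost without 2 to 5 of the 6 libraries. That of Axin2 was also lost with no filter on low counts (adjusted p = 0.0635). With the identifier as a term, 0 to 1 of the 10 genes passed with time on soft and 1 to 3 on stiff substrates.

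**Figure D4:**
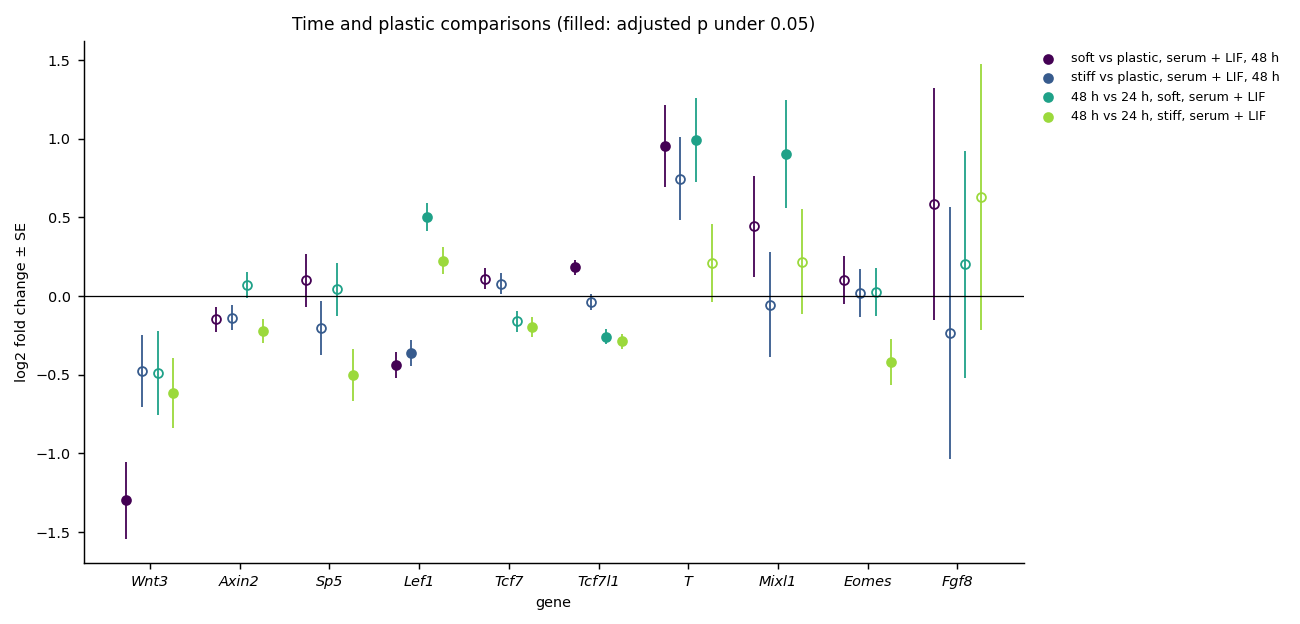
Log2 fold changes (vertical axis, bars are standard errors of the edgeR fit) of soft and stiff substrates against plastic and of 48 h against 24 h, for each gene (horizontal axis), with filled points for an adjusted p under 0.05. Wnt3 lies lowest for soft substrates against plastic, at -1.30, and T highest for 48 h against 24 h on soft substrates, at 0.99, among the filled points.

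The other genes of the pathway and of the streak were taken from 5 lists. In the mean of soft against stiff substrates over the 5 media and times, 17.1% of all genes tested passed, 1479 higher and 1548 lower. Most of this mean comes from 48 h, where substrate and description identifier nearly coincide. The genes of the lists were not refitted with a term for the identifier or with a library left out, so the part of the identifier in their differences was not tested. Of 18 other Wnt ligands, 14 passed the filter, and 9 of them were lower and 0 higher on soft substrates, with a median log2 fold change of -0.36 against 0.00 for all genes tested. Wnt4 was lower by a log2 fold change of -0.84 ± 0.08 (adjusted p = 2e-11) and Wnt9a by -0.83 ± 0.13 (adjusted p = 1.55e-06, edgeR). Of 20 tested secretion factors and receptors, 2 were higher and 3 lower, among them the receptor Fzd5 (0.26, adjusted p = 1.89e-13) and Wls, which escorts Wnt ligands to the surface (-0.58, adjusted p = 5.44e-11, edgeR). Of 13 tested inhibitors and feedback genes, 3 were higher and 1 lower, with the secreted inhibitor Sfrp1 higher by 0.44 (adjusted p = 1.28e-19, edgeR). Of 20 tested cytoplasmic and nuclear components 2 were higher and 1 lower, and of 23 tested other streak and mesendoderm genes 2 were higher and 3 lower, with Hand1 at -0.75 (adjusted p = 2.25e-17, edgeR).

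With PD03 the same lists held genes that rose and genes that fell. Of all genes tested, 57.5% passed on soft substrates without LIF, 5139 higher and 5038 lower. On soft substrates without LIF, 5 of the 14 other Wnt ligands were higher and 3 lower, and Wnt7b and Wnt4 were higher with log2 fold changes of 1.59 and 1.56. Of the 20 secretion factors and receptors 5 were higher and 11 lower, with the receptor Fzd7 at -2.37 (adjusted p = 5.16e-38) and the R-spondin receptor Lgr4 at -1.02 (adjusted p = 2.61e-24, edgeR). Of the 13 inhibitors and feedback genes 6 were higher and 5 lower, and the inhibitors Sfrp1 and Apcdd1 were higher with log2 fold changes of 2.02 and 3.03. Of the 20 cytoplasmic and nuclear components 10 were higher and 5 lower, with Tcf7l2, the remaining member of the TCF/LEF family, at 1.57 (adjusted p = 6.71e-25, edgeR). Of the 23 streak and mesendoderm genes 9 were higher and 7 lower, with Fgf4 at 1.22 and Hand1 at 2.21. The medians of these 5 lists were 0.32, -0.50, 0.17, 0.06 and -0.10 against 0.00 for all genes tested.

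For each gene, the genes most like it over the 11 group means of log2 CPM were sought among 13793 genes with a mean of at least 1 CPM. Pearson's r was 0.998 between Lef1 and Hook1, 0.998 between Lef1 and the receptor Fzd7, and 0.990 between Wnt3 and Gli3. These points share the division into groups with and without PD03, and 1347 genes had an r above 0.95 with Lef1. Between the members themselves, r of Sp5 and Lef1 was 0.987 over the 11 groups and -0.32 over the 7 groups without PD03, and that of Wnt3 and Axin2 was 0.937 and 0.626.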

How the data were processed

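RNA from 36 libraries was sequenced with a NuGen kit named in the labels. Per the labels and the study's methods, the authors aligned reads to GRCm38 with STAR 2.5.2a and counted them per Ensembl gene with HTSeq, and they deposited raw counts. The strand setting was not given in the sources used here. Each column of the count table named its group but no replicate, so columns were assigned to groups and library numbers are only names. No columns were left unused.

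Low counts were removed by the filterByExpr rule of edgeR, and the 17702 genes left held 99.92% of all counts. Libraries were scaled by TMM, and a quasi-likelihood model with 1 coefficient per group was fitted over all libraries in edgeR 4.0.16 (R 4.3.3). Each comparison was a contrast, with Benjamini-Hochberg adjustment over 17702 genes and a threshold of 0.05. CPM values were computed from the deposited counts. Exon lengths and coordinates came from GENCODE M21, which held 49412 of the identifiers. No pair of replicate libraries agreed within sampling noise (chi-square per gene between 2.22 and 13.4 over 45 pairs). Alternatives were DESeq2 1.42.0, RLE scaling, no filter, the compared groups alone, each library left out and a term for the description identifier. The fitting was also run on counts simulated from the fitted model, with known changes planted between soft and stiff substrates at 24 h. That run shares the assumptions of the model and covers no other comparison.

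The 10 genes and the lists were chosen with earlier results of these data known. All members were named. From each list, the 2 genes with the highest mean CPM and the 2 with the smallest adjusted p were eligible, and for likeness the 3 most similar genes per member. Spry4, Dusp6 and Socs3 served as checks of the labels.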

Additional observations from a re-analysis of the deposited data

How the results depend on the processing

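No paired analysis was possible because the columns of the count table carry no replicate number. Of 72 fold changes, RLE scaling left the direction and the side of the threshold unchanged in all 72. DESeq2 did so in 68 of the 69 it could adjust, and 2 counts of genes past the threshold moved, to 5 in the mean over media and times and to 2 for stiff substrates against plastic. With the compared groups alone 2 calls were lost, of Tcf7l1 between substrates at 24 h and of Mixl1 with time on soft substrates, and the count for stiff substrates against plastic was also 2. With no filter on low counts the counts between substrates were 0 with PD03 alone and 0 with PD03 and LIF, and 1 for the interaction of stiffness and LIF. With 1 library left out, the counts between soft and stiff substrates were 1 to 4 at 24 h and 3 to 5 in the mean, and at 48 h 0 to 1 with LIF, 1 to 3 with no addition, 0 to 1 with PD03 and 0 to 1 with both. They ranged from 1 to 2 for LIF on stiff substrates without PD03, from 2 to 4 for soft substrates against plastic and from 2 to 6 for time on stiff substrates. No fold change was reversed by leaving out a library.

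The term for the description identifier was fitted over 45 assignments, and the counts are given as the lowest and highest. Between substrates they were at 48 h 0 and 0 with LIF, 0 and 1 with no addition, 0 and 1 with PD03, 0 and 1 with both, and 0 and 2 in the mean. They were 1 and 2 for LIF on stiff substrates, 0 and 1 for soft and 0 and 1 for stiff substrates against plastic, 0 and 1 for time on soft and 1 and 3 for time on stiff substrates. At 24 h the count between substrates stayed at 4, and with PD03 it was between 8 and 10. Some assignments reversed a log2 fold change, to 0.0216 for Lef1 in serum and 0.013 for Axin2 in the mean between substrates, to 0.20 for Lef1 and -1.02 for T between soft substrates and plastic, and to -0.39 for Lef1, -0.98 for T and -0.34 for Mixl1 with time on soft substrates. These fits estimate the term from the few libraries that break the overlap of identifier and group. The cause of the other changes was not tested. Low counts limit Sp5 and T with PD03, Mixl1 (9 to 43 per library) and Fgf8 (0 to 24).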
